A study of Mus musculus with 4 samples.

Results

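Marker genes of neuroblasts, the young neurons that still migrate, and of the dividing progenitors that make them were followed through 4 mouse brain sections. They were 10 of the 32285 genes in the count tables. Whether their mRNA came from such cells was not tested. The 10 genes were taken by symbol, and each matched 1 row. They are Dcx, Sox11, Sox4, Dlx1, Dlx2, Igfbpl1, Cd24a, Sp9, Top2a and Mki67. Together they gave 9265 of the 101748572 unique molecular identifiers (UMIs, each 1 captured mRNA molecule) in the spots used, and 4347 of these 7620 spots held at least 1 UMI of at least 1 of the 10 genes.

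In the adult mouse forebrain, neural stem cells line the subventricular zone next to the lateral ventricles and give rise to dividing progenitors and then to neuroblasts, which travel along the rostral migratory stream to the olfactory bulb. A sheet of multiciliated ependymal cells lies between this zone and the ventricle, and the transcription factor Foxj1 and the cilia gene Ccdc153 mark it. Oligodendrocyte progenitor cells (OPCs), marked by the receptor Pdgfra and the proteoglycan Cspg4, are a separate dividing population spread through grey and white matter.

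All 4 sections were cut from fresh frozen brain of Nf1+/- mice, which are heterozygous for loss of the neurofibromatosis type 1 gene, and wild-type tissue was not analysed here. The methods put the study's mice on a C57/BL6 background. The labels give neither the age of these animals nor how many mice gave the 4 sections, so n is a number of sections. The p-values weigh the difference between the 2 spot groups within a section. Its spread between sections, beyond counting error, was estimated with information shared over genes. Each barcoded spot of the Visium slide captures mRNA from the tissue above it and can hold several cells. Spots with at least 500 UMIs were used, which were 1537, 2358, 2294 and 1431 spots in sections 1 to 4, with median depths of 14922, 15296.5, 8862.5 and 12232 UMIs. Spot positions were not used, so closeness here means detection in the same spot. Outside the spots richest in the 10 genes, markers of astrocytes were found in 99.5% of spots and markers of cortical and hippocampal excitatory neurons in 85.3%. Section 3 was the shallowest, and spots with at least 3 of 10 choroid plexus markers numbered 189, 4, 7 and 76 in sections 1 to 4. The same barcodes occur on every slide area, and 427 to 1989 barcodes were shared between pairs of sections. The gene counts of any 2 sections differed by more than sampling noise, with chi-square values of 13.6 to 51.8 for each degree of freedom.

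The genes lie on 8 chromosomes in the RefSeq annotation of the build GRCm38.p6. The homeobox genes Dlx1 (ENSMUSG00000041911, chr2:71528113-71533981) and Dlx2 (ENSMUSG00000023391, chr2:71543408-71546754) are neighbours, and the zinc finger gene Sp9 (ENSMUSG00000068859, chr2:73271926-73275771) lies on the same chromosome. Sox11 (ENSMUSG00000063632, chr12:27334268-27342718) and Sox4 (ENSMUSG00000076431, chr13:28948919-28953699) encode transcription factors of the SoxC group. The microtubule-associated protein gene Dcx (ENSMUSG00000031285) is at chrX:143855842-143933396, the secreted factor gene Igfbpl1 (ENSMUSG00000035551) at chr4:45809507-45826827 and the surface glycoprotein gene Cd24a (ENSMUSG00000047139) at chr10:43579169-43584265. Top2a (ENSMUSG00000020914, chr11:98992947-99024199), a topoisomerase that untangles chromosomes, and Mki67 (ENSMUSG00000031004, chr7:135689784-135716450), which coats mitotic chromosomes, are made by dividing cells.

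Promoter windows from RefSeq, 250 bases before to 50 bases after a start given by the sequence table, were held for 8 of the 10 genes, and not for Igfbpl1 and Cd24a. That start is the outer end of the gene coordinates above for Sox4, but lies inside them for Mki67, Top2a and Dcx, so part of what the window counts as upstream falls within those gene bounds. Dcx had 2 windows, which overlap and have the same counts of the 2 motifs marked below, and the first is shown. Those of Mki67 and Top2a are shown because these 2 genes were found in the same spots more often than predicted for independent genes. That of Sox4 is shown because Sox4 was called higher in spots with either gene, and that of Dcx because Dcx was not. Capitals mark CCAAT, the box bound by the factor NF-Y, and TTTGAA, part of the cell cycle homology region, on either strand (ATTGG and TTCAAA on the other), and the marked motifs do not overlap. The 4 windows are chr7:135716330-135716629 for Mki67, chr11:99024140-99024439 for Top2a, chr13:28953650-28953949 for Sox4 and chrX:143933170-143933469 for Dcx, all on the minus strand and read 5′ to 3′.
Mki67: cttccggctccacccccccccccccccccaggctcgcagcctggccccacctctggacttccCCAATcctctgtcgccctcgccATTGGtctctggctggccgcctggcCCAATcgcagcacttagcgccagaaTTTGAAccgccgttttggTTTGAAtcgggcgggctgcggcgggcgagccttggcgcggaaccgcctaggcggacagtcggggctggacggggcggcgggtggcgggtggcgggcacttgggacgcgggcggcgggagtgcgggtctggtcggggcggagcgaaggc
Top2a: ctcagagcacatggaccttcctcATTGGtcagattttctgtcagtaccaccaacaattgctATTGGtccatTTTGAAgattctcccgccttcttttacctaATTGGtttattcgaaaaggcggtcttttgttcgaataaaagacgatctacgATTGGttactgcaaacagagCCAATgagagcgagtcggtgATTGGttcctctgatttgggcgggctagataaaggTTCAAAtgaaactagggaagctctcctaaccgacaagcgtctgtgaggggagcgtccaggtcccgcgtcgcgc
Sox4: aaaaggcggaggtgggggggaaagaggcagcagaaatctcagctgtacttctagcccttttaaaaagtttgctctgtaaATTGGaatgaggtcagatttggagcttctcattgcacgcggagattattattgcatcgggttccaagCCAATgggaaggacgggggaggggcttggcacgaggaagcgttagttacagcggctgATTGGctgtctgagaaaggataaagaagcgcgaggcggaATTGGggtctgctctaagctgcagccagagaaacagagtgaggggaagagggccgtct
Dcx: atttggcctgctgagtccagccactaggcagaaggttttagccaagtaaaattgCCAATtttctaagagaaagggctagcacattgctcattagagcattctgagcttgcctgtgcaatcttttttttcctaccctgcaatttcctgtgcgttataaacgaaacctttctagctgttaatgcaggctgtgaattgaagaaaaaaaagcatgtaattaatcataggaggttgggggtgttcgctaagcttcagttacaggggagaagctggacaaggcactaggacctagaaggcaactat
The window of Top2a held 6 copies of CCAAT and 2 of TTTGAA, and that of Mki67 held 3 and 2. The window of Sox4 held 4 copies of CCAAT and that of Dcx held 1, with no TTTGAA in either. Windows not shown did not follow this contrast. Sox11 and Dlx2, also called higher in spots with Mki67 or Top2a, had 1 copy of CCAAT each, with 1 and 0 of TTTGAA. Sp9 and Dlx1, not called there, had 2 and 0 copies of CCAAT, with 1 and 0 of TTTGAA. Of 32851 mouse promoter windows of the same length, 37.4% held CCAAT, 17.9% held TTTGAA and 6.95% held both, whereas 3.37% held at least 3 copies of CCAAT and 0.0791% held at least 6. The windows also differed in base composition, from 43.0% GC for Dcx to 72.7% for Mki67, around a median of 52.7% over all windows. Of the other motifs searched on both strands and not marked, GGGCGG was in 35.7% of windows, TAATT in 27.0%, CACCTG in 20.2% and ACAAAG in 18.7%. A match of letters is a description and not a measured binding site.

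Levels were first compared across the 4 sections, as UMIs of the gene for every 1e+06 UMIs of the section (CPM). These levels are not per length of mRNA, so they were compared within a gene and not between genes. Dcx stood at 8.26, 9.27, 7.86 and 9.55 CPM in sections 1 to 4 (mean 8.74 ± 0.805, SD, n = 4), and the exact Poisson 95% intervals of the highest and the lowest section overlapped. The same held for Sox4, at 10.3, 12.1, 11.9 and 10.5 CPM. Dcx and Sox4 were the steadiest of the genes, with highest over lowest ratios of 1.22 and 1.18.

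The other genes varied more between sections. Sox11 stood at 16.9, 16.1, 14.0 and 9.97 CPM, and Igfbpl1 at 5.07, 4.92, 6.59 and 2.28 CPM. Section 4 was the lowest for both, outside the intervals of the other 3 sections, and Igfbpl1 differed 2.88-fold between sections 3 and 4. Dlx1 stood at 10.9, 11.9, 14.0 and 12.5 CPM and Dlx2 at 7.54, 8.35, 10.2 and 7.53 CPM, both highest in section 3. Cd24a stood at 14.2, 8.49, 11.4 and 9.19 CPM and Sp9 at 20.5, 19.0, 19.5 and 15.4 CPM, both highest in section 1. Section 1 also held the most Foxj1 (10.8 CPM, against 4.41 to 5.77 CPM in the other sections) and the most choroid plexus-marker spots. Where a section was cut was not used, so these section levels were not tested against position.

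The 2 genes of dividing cells were rare. Top2a gave 9, 43, 16 and 6 UMIs and Mki67 gave 17, 34, 15 and 6 UMIs in sections 1 to 4, or 0.383, 1.16, 0.727 and 0.312 CPM and 0.724, 0.919, 0.681 and 0.312 CPM. Section 2 was the highest for both. The intervals of the highest and the lowest section overlapped for Mki67 and did not for Top2a. In a section, fewer cells that make a gene and less of its mRNA per cell cannot be told apart.

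**Figure D1:**
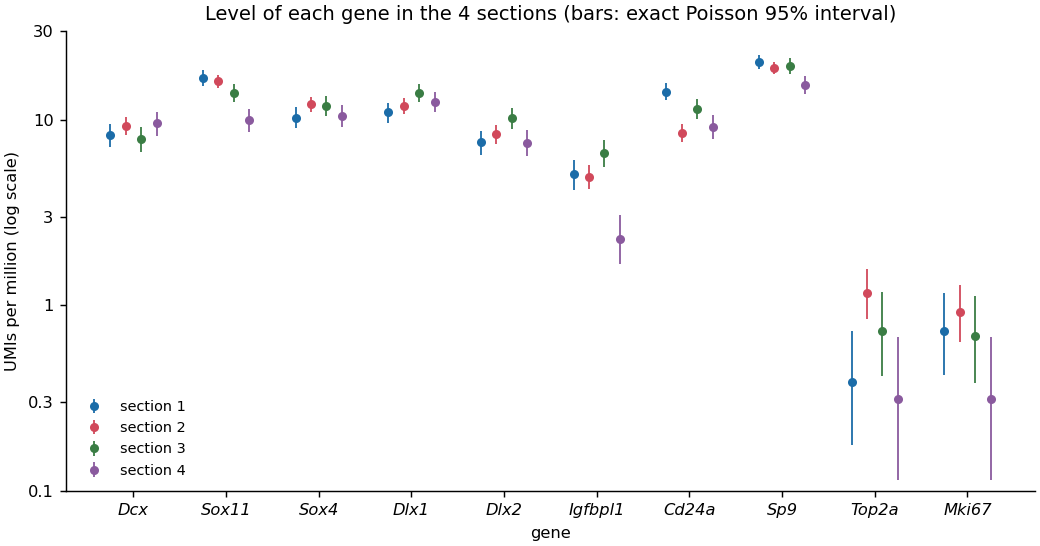
Level of each of the 10 genes in the 4 sections, in CPM on a log axis, with exact Poisson 95% intervals that cover counting error only. Dcx and Sox4 changed least between sections, Igfbpl1 was lowest in section 4 (2.28 CPM), and Top2a and Mki67 lay at or below 1.16 CPM in every section.

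At least 1 Dcx UMI was found in 10.8% ± 2.81 of spots (SD, n = 4 sections), and the corresponding shares were 16.1% ± 5.19 for Sox11, 12.9% ± 2.59 for Sox4, 12.7% ± 2.09 for Dlx1, 9.51% ± 1.29 for Dlx2, 4.61% ± 1.49 for Igfbpl1, 9.74% ± 2.51 for Cd24a, 19.2% ± 4.64 for Sp9, 0.746% ± 0.530 for Top2a and 0.790% ± 0.464 for Mki67. These shares depend on depth. When spots with at least 5000 UMIs were thinned to 5000 UMIs each (72, 143, 427 and 207 shallower spots left out), Dcx was found in 4.10% ± 0.382 and Igfbpl1 in 2.31% ± 0.568. As a reference tissue, the 10% of used spots richest in mature oligodendrocyte markers were taken, and only those with at least 5000 UMIs were kept. These myelin-rich spots numbered 127, 126, 70 and 47 in sections 1 to 4. Before thinning, their median depths were 8645, 9078.5, 7137 and 6064 UMIs, against 15651, 16140, 10179 and 13898 in the rest. At the thinned depth they held Dcx in 2.76% ± 1.56, against 4.19% of the remaining spots, and the share was lower in myelin-rich spots in 3 of 4 sections. Igfbpl1 was at 2.70, 1.34, 3.26 and 10.8% in the myelin-rich spots of sections 1 to 4 and at 2.54, 2.22, 2.92 and 1.23% in the rest, lower in section 2 and higher in the others. Its mean of 4.52% ± 4.25 in myelin-rich spots rested on the 47 such spots of section 4 and was 2.43% without that section, against 2.56% in the rest. Sp9 was lower in myelin-rich spots in all 4 sections, at 6.30% ± 0.680 against 8.99%, and so was Sox11, at 4.28% ± 1.12 against 6.88%.

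The genes differed in how their UMIs lay over the spots. The dispersion index compares the variance of a gene over spots with the value that spot depth alone predicts, so that 1 means a spread by depth alone. Dcx had indices of 1.02, 0.988, 1.04 and 1.04 in sections 1 to 4, and it was found in 0.977 ± 0.0242 of the number of spots that depth predicts. The comparison genes were all genes whose UMI total in a section lay between the lowest and the highest total of the 8 genes other than Top2a and Mki67, so they span that range and were not matched to each gene. Their median index was 1.04 to 1.09 by section, and 57.0 to 79.9% of them were more concentrated than Dcx. By this index, Dcx, the usual marker of neuroblasts, could not be told from a spread by depth. With a UMI in only 10.8% of spots, an index near 1 cannot show an even spread. Spots with Dcx differed from the rest in markers of neurons and glia, as given below.

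Cd24a and Igfbpl1 were the opposite. Cd24a had indices of 2.66, 2.37, 2.53 and 2.48 and Igfbpl1 of 1.79, 1.65, 2.14 and 2.20, and both genes lay above Dcx in each section. For Cd24a, 0.496 to 1.15% of the comparison genes were more concentrated. Cd24a was found in 0.740 ± 0.0294 and Igfbpl1 in 0.784 ± 0.0551 of the number of spots that depth predicts, and single spots held up to 14 UMIs of Cd24a and up to 7 of Igfbpl1. Dlx1 lay in between, with indices of 1.71, 1.14, 1.53 and 1.40, and Dlx2 was at 1.26, 1.19, 1.42 and 1.12. The means were 1.27 ± 0.123 for Sox11, 1.28 ± 0.0347 for Sox4 and 1.32 ± 0.0755 for Sp9. From few UMIs, Top2a had a mean of 1.97 ± 0.676 (1.20 to 2.74 by section) and Mki67 of 1.67 ± 0.549 (1.08 to 2.39). The ependymal markers themselves were at 2.83 ± 1.14 (Foxj1) and 4.88 ± 1.01 (Ccdc153), and the OPC markers at 1.48 ± 0.0949 (Pdgfra) and 1.26 ± 0.0752 (Cspg4).

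**Figure D2:**
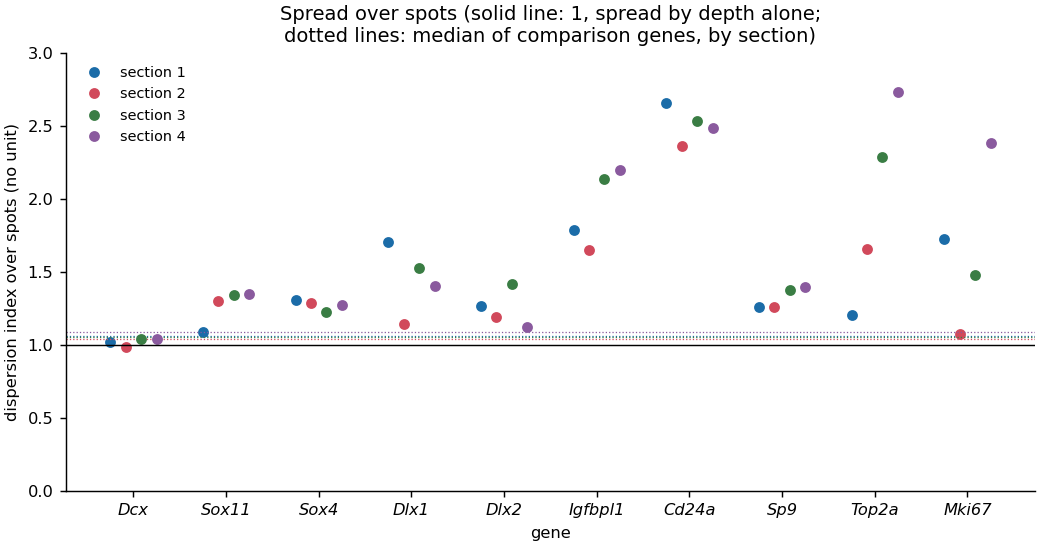
Dispersion index over spots (no unit) for each gene in each section. The solid line at 1 is a spread by depth alone and the dotted lines are the medians of the comparison genes in each section. Dcx lay at 0.988 to 1.04, and Cd24a at 2.37 to 2.66.

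Detection of the genes in the same spot was then compared with an expectation for independent genes. It kept the number of spots in which each gene was found and spread these by spot depth. A gene gathered in few spots thus has a lower expectation here than its UMI total would give. Spots with at least 4 of the 10 genes numbered 309 against 153 expected, and spots with at least 5 numbered 112 against 27.6. A single spot held 9 of the 10 genes. Spots with exactly 2 or 3 of the genes were fewer than predicted, at 1163 against 1343 and 382 against 481. Spots with 0 of the genes were more than predicted, at 3273 against 3031. The excess thus lay in spots with 0 of the genes and in the few spots richest in the set.

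**Figure D3:**
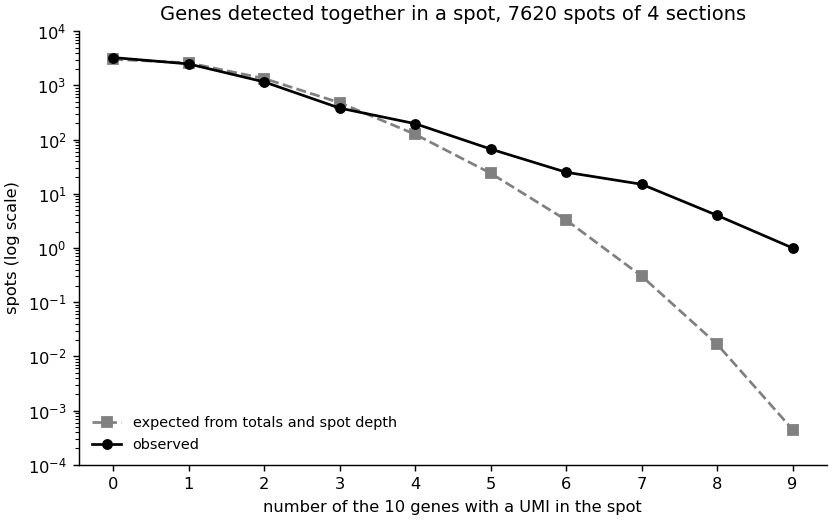
Number of spots (log axis) by how many of the 10 genes had a UMI in the spot, observed and predicted. The prediction used spot depth and the number of spots in which each gene was found, which the legend calls totals. The observed count is above the expected one at 0 genes, with 3273 spots against 3031. It is above again from 4 genes upward, with 112 spots at 5 or more against 27.6 predicted.

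Of the 45 pairs, 35 had at least 10 expected spots, and 14 of these 35 (40.0%) were above expectation in all 4 sections. As a background, the 8 genes other than Top2a and Mki67 were above expectation in all 4 sections with 9.11% of their other partner genes. The strongest pairs of these 35 joined Igfbpl1 with the Dlx genes. Igfbpl1 and Dlx2 were found together in 120 spots against 42.6 expected (2.82-fold), and the ratio was 2.52, 3.08, 2.73 and 2.71 in sections 1 to 4. Igfbpl1 and Dlx1 shared 145 spots against 55.4 expected (2.62-fold, 2.36 to 3.34 by section). Dlx1 and Dlx2, which encode homeodomain factors of the interneuron lineage, shared 233 spots against 113 expected (2.06-fold, 1.69 to 2.49 by section). Igfbpl1 also went with Cd24a (2.14-fold) and with Sp9 (1.82-fold), each in all 4 sections.

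Dcx lay closer to expectation. Its ratios with the other members with at least 10 expected spots ran from 0.950 with Sp9 to 1.28 with Sox4, and 2 of these 7 pairs, with Dlx1 and Dlx2, were above 1 in all 4 sections, a share of 28.6% that was close to the 27.1% of Dcx with every other gene. Sox4 had no partner among the 10 genes above 1 in all 4 sections, since section 4 fell below 1 in all of its pairs but the one with Mki67. The pair of dividing-cell genes, Top2a and Mki67, shared 13 spots against 0.788 expected, with 2, 8, 3 and 0 such spots in sections 1 to 4.

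With the spots that held a UMI of Foxj1 or Ccdc153 left out, and the expectation made anew, Igfbpl1 and Dlx2 still shared 79 spots against 28.4 expected (2.78-fold), Igfbpl1 and Dlx1 99 against 37.2 (2.66-fold) and Dlx1 and Dlx2 162 against 86.1 (1.88-fold), each above 1 in all 4 sections. Cd24a and Dlx2, at 1.31-fold over all spots, stood at 1.02-fold there. The ratios of Igfbpl1, Dlx1 and Dlx2 were thus close to their values over all spots. This setting was chosen after seeing the data.

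For each gene in turn, the 5% of spots richest in the other 9 genes were picked in each section without the gene itself. These spots held on average 4.13 to 4.38% of all UMIs, depending on the gene left out. They held 32.2% ± 3.36 of the UMIs of Igfbpl1, 11.2 ± 4.07 times the level elsewhere. The corresponding ratios were 6.04 ± 2.32 for Cd24a, 5.29 ± 1.43 for Dlx2, 5.16 ± 1.54 for Dlx1, 3.10 ± 1.14 for Sp9 and 2.47 ± 1.02 for Sox11, each above 1 in all 4 sections. Sox4 was at 2.43, 3.25, 3.48 and 0.716 in sections 1 to 4, so that section 4 went the other way. Dcx was at 1.89, 1.97, 1.55 and 1.21, the lowest mean of the 10 genes (1.65 ± 0.346). From few UMIs, Top2a (15.6 ± 15.3, with 0 in section 4) and Mki67 (14.8 ± 7.86) had the highest mean ratios.

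In the spots richest in all 10 genes, the summed level of 10 ependymal markers was 5.36 ± 1.91 times that of the other spots, and that of Foxj1 and Ccdc153 11.6 ± 6.76 times. At least 1 UMI of these 2 markers was found in 30.5% ± 9.74 of the rich spots and in 8.55% ± 3.55 of the others. The summed level of 8 OPC markers was 1.14 ± 0.0891 times that of the other spots, above 1 in all 4 sections. That of Pdgfra and Cspg4 was 1.10 ± 0.138 times, above 1 in 3 of 4 sections. Choroid plexus markers were raised too (3.29 ± 1.25), and other cell cycle genes stood at 1.77 ± 0.454. Markers of cortical and hippocampal excitatory neurons (0.415 ± 0.133) and of striatal projection neurons (0.525 ± 0.185) were below 1 in all 4 sections. Those of inhibitory neurons (1.16 ± 0.0511) and astrocytes (1.16 ± 0.0698), and other neurogenesis genes (1.06 ± 0.0405), were above 1 in all 4 sections.

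Whether the genes lie in spots that hold ependymal mRNA was tested with 229, 210, 173 and 104 spots that held a UMI of Foxj1 or Ccdc153, against all other spots of the same section. Most of the set was higher there. Cd24a stood at 41.0, 31.5, 55.9 and 36.2 CPM in ependymal-marker spots of sections 1 to 4 and at 9.23, 5.97, 7.90 and 7.50 CPM elsewhere, with no overlap. Its log2 fold change was 2.39 (standard error 0.13), with an adjusted p of 7.57e-10 by the quasi-likelihood test of edgeR, Benjamini-Hochberg adjusted over all genes. Cd24a is known on ependymal cells as well as on neuroblasts.

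Igfbpl1 stood at 12.04, 15.1, 19.7 and 6.18 CPM in ependymal-marker spots and at 3.78, 3.81, 5.54 and 2.04 CPM elsewhere (log2 fold change 1.79, standard error 0.19, adjusted p = 3.90e-06 from edgeR). Every section of the first group lay above every section of the second. Dlx1 stood at 20.5, 24.9, 37.5 and 16.8 against 9.18, 10.4, 12.1 and 12.2 CPM (1.18, standard error 0.15), and Dlx2 at 14.0, 20.0, 24.0 and 10.6 against 6.36, 7.08, 9.08 and 7.34 CPM (1.22, standard error 0.16), again with no overlap. Sox4, at 18.9 ± 3.35 against 10.4 ± 0.836 CPM, rose by 0.82 on the log2 scale in 4 of 4 sections. Sox11 (0.66, 3 of 4 sections) and Sp9 (0.57, 4 of 4 sections) also passed the test, by smaller amounts. Sox11 went the other way in section 1, at 15.3 against 17.2 CPM.

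In all, 7 of the 8 members tested were called higher and 0 lower (0 lower at an unadjusted p under 0.05 and by DESeq2), where 6.5% of 14374 genes were called higher and 4.49% lower. Dcx was the member tested but not called. It stood at 8.75, 15.6, 10.4 and 8.83 CPM in ependymal-marker spots and at 8.17, 8.58, 7.65 and 9.60 CPM elsewhere (log2 fold change 0.40, standard error 0.18, adjusted p = 0.195 from edgeR). The difference was largest in section 2, and section 4 went the other way. Top2a and Mki67 did not pass the filter on low counts. Of their few UMIs, 29 of 74 and 23 of 72 lay in ependymal-marker spots, at 2.50 ± 2.54 against 0.453 ± 0.178 CPM and 2.15 ± 1.20 against 0.508 ± 0.170 CPM. Mki67 was higher in 4 of 4 sections and Top2a in 3, with 0 of its 6 UMIs of section 4 in ependymal-marker spots.

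With choroid plexus-marker spots left out, 143, 209, 167 and 72 ependymal-marker spots remained in sections 1 to 4, so most of those removed were in sections 1 and 4. There 7 members were again called higher, Cd24a at 1.86 and Igfbpl1 at 1.61. Sox11 and Sp9 lost their calls without section 2 (adjusted p = 0.236 and 0.0815 from edgeR) and without section 3 (0.176 and 0.0845), and over 15 alternatives their adjusted p ranged up to 0.236 and 0.280, while Cd24a, Igfbpl1, Dlx1, Dlx2 and Sox4 passed in all 15.

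Levels were also set against the number of ependymal marker UMIs in the spot. In spots with 0, 1 and at least 3 UMIs of Foxj1 and Ccdc153, Cd24a had mean levels of 7.65 ± 1.34, 14.9 ± 3.52 and 227 ± 79.6 CPM. The last group was above every other group in each section, at 134, 206, 326 and 241 CPM. Sox4 went from 10.4 ± 0.836 to 13.7 ± 2.50 and 54.5 ± 26.5 CPM, and Dlx2 from 7.46 ± 1.15 to 14.0 ± 3.09 and 40.3 ± 25.8 CPM. For both the last group was above the first in each section, in section 4 from only 3 and 2 UMIs. The steps between were not even, since Dlx2 was at 3.01 CPM (1 UMI) in the 21 spots of section 1 with 2 marker UMIs. Igfbpl1 went from 3.79 ± 1.43 to 11.7 ± 5.25 and 19.3 ± 15.7 CPM, with 0 UMIs in the 12 spots of section 4 that held at least 3. Dcx stood at 8.50 ± 0.824, 9.28 ± 2.34 and 20.0 ± 18.3 CPM. In spots with at least 3 marker UMIs, Dcx was at 11.5, 42.2, 26.3 and 0 CPM in sections 1 to 4. In spots with 0 marker UMIs, Dcx was at 8.17, 8.58, 7.65 and 9.60 CPM. Other genes did not rise in each section either. Sox11 in section 1 stood at 17.2 CPM with 0 and 13.0 CPM with at least 3 marker UMIs, Sp9 there at 20.0 and 20.2 CPM, and Dlx1 and Sp9 had 0 UMIs in the last group of section 4. The 12 spots of that group held 91401 UMIs in all, where 1 UMI is 10.9 CPM. Counts of 0 there cannot show a lower level. When at least 2 marker UMIs were asked for, Dcx passed the test (log2 fold change 1.06, adjusted p = 0.0156 from edgeR).

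**Figure D4:**
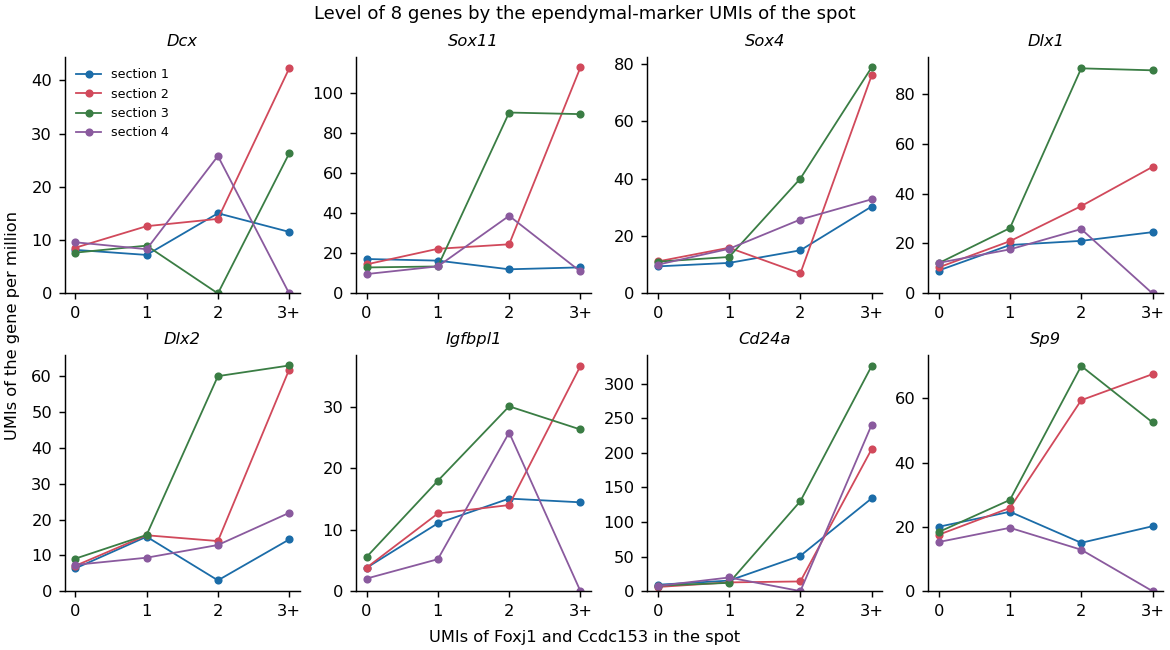
Level of 8 genes (CPM, linear axes that differ between panels) in spots with 0, 1, 2 and at least 3 UMIs of Foxj1 and Ccdc153, 1 line for each section. Cd24a reached 134 to 326 CPM in the last group of all 4 sections. Dcx, Dlx1, Sp9 and Igfbpl1 were at 0 in the 12 spots of the last group of section 4. There 1 UMI is 10.9 CPM, so these counts of 0 cannot show a lower level.

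Other gene groups moved in these spots too. A gene that did not reach the limit of the filter on low counts (0.918 CPM) in the other spots of all 4 sections could enter the test only with the help of the ependymal-marker spots, where it is high, so such genes are not counted here. None of the 8 members tested was of this kind. All 6 of the further ependymal markers that remained were called higher, led by Tmem212 (log2 fold change 3.86) and Dynlrb2 (3.40), and so were the 3 choroid plexus markers that remained of 10. The summed level of the 10 choroid plexus markers ran from 21.9 to 620 CPM in ependymal-marker spots and from 15.2 to 73.6 CPM elsewhere, with none of the 10 at 0, and the part of choroid plexus in the member values beyond the setting above was not tested. Of 23 other neurogenesis genes, 4 were called higher, among them the zinc finger factor Sp8 (0.97) and the stem cell factor Sox2 (0.65), and 1, Stmn1, was called lower. Of 8 other cell cycle genes, 2 were called higher, Hmgb2 (1.39) and Birc5 (1.13), and the summed level of all 20 genes of that list was 131 to 173 CPM against 101 to 109 CPM. The 8 OPC markers had a median log2 fold change of 0.00, like that of all genes.

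Neuron markers differed by class in ependymal-marker spots. Of 8 inhibitory neuron markers, 1 was called higher, Calb2 (0.43), and 1 lower, Vip (−0.81), and their median log2 fold change was 0.03. Many markers of the other 2 classes were lower. Of 8 cortical and hippocampal excitatory neuron markers, 5 were called lower and 0 higher, led by Slc17a7 (−0.67) and Tbr1 (−0.64), and their summed level was 324 to 556 CPM against 520 to 772 CPM elsewhere, lower in each section. Of 9 striatal projection neuron markers, 7 were called lower and 0 higher, by smaller amounts, among them Adora2a (−0.27), Drd2 (−0.26) and Penk (−0.25). Of 8 astrocyte markers, 3 were called higher, among them Sox9 (0.92) and Gja1 (0.36). The part of these shifts in the member values was not tested.

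The same question was asked of OPC mRNA with 599, 901, 506 and 560 spots that held a UMI of Pdgfra or Cspg4. No member passed the test. Igfbpl1 stood at 5.63, 5.70, 6.72 and 1.34 CPM in OPC-marker spots and at 4.66, 4.36, 6.54 and 3.11 CPM elsewhere (log2 fold change 0.10, standard error 0.15), and Cd24a at 15.5, 8.23, 9.82 and 7.47 against 13.2, 8.67, 12.03 and 10.7 CPM (−0.12, standard error 0.10). The 2 groups overlapped for both genes. The log2 fold changes of the 8 members tested lay between −0.15 and 0.18 with standard errors of 0.073 to 0.15.

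Of these 8 members, 0 were called in either direction by edgeR's quasi-likelihood test, where 0.517% of 14500 genes were called higher and 0.759% lower. DESeq2 gave none of the 8 an adjusted p in this comparison, so it could not call them. Sp9 alone had an unadjusted p under 0.05 (−0.15, unadjusted p = 0.0441 and adjusted p = 0.526 in the edgeR fit across all genes), and it was lower in 4 of 4 sections. The grouping did sort OPC mRNA, since 4 of the 6 further OPC markers were called higher, C1ql1 (0.74), Matn4 (0.69), Neu4 (0.64) and Lhfpl3 (0.40). It sorted other mRNA too. Of 7 meningeal fibroblast markers, 2 were called higher, among them Igf2 (0.35), and of 7 endothelium and mural cell markers 1, Vtn (0.17). All 8 mature oligodendrocyte markers and 8 of 9 striatal projection neuron markers were called lower. The part of these shifts in the member values was not tested. Mki67 had 32 of its 72 UMIs and Top2a 23 of its 74 in OPC-marker spots, at 0.789 ± 0.270 against 0.593 ± 0.297 CPM and 0.533 ± 0.183 against 0.707 ± 0.543 CPM, which overlap. Among other neurogenesis genes, Fabp7 (0.33) and Marcksl1 (0.27) were called higher and Meis2 (−0.17) lower. OPC-marker spots were also deeper, with median depths of 10803.5 to 16555 against 8384 to 14484 UMIs. In spots with at least 3 UMIs of the 2 markers, Sox4 stood at 17.1 ± 6.63 CPM against 10.7 ± 0.425 CPM at 0, and Cd24a at 7.27 ± 6.56 against 11.2 ± 1.96 CPM, and for both genes the sections of the first group overlapped those of the second.

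Which genes accompany Dcx was asked with the 178, 312, 155 and 167 spots that held a Dcx UMI. Of 7 members tested, 3 were called higher and 0 lower by edgeR (1 lower at an unadjusted p under 0.05, 0 by DESeq2), where 4.48% of 14421 genes were called higher and 4.37% lower. Cd24a stood at 16.1, 15.4, 11.4 and 10.2 CPM with Dcx and at 13.9, 7.13, 11.5 and 8.99 CPM without (log2 fold change 0.46, adjusted p = 0.0460 from edgeR), which rested on section 2. Sox4 stood at 15.1, 16.4, 16.6 and 9.28 against 9.49, 11.3, 11.4 and 10.7 CPM (0.40, adjusted p = 0.0450), higher in sections 1 to 3 and lower in section 4. Dlx1 was higher in all 4 sections, at 15.4, 16.1, 16.6 and 13.4 against 10.2, 11.04, 13.7 and 12.3 CPM (0.38, adjusted p = 0.0351). Sp9 was lower in all 4 sections but not called (−0.28, unadjusted p = 0.0135, adjusted p = 0.110 from edgeR).

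These 3 calls were close to the threshold. Without section 2 the count was 0, without section 1 or section 3 it was 1, and it was 0 without choroid plexus-marker spots, 0 without ependymal-marker spots and 0 with DESeq2. Spots with a Dcx UMI were deeper than the others, with medians of 17272, 18113, 12006 and 17823 against 14534, 14888, 8668 and 11513.5 UMIs. Against other spots matched on total UMIs, 62 genes were higher and 126 lower in place of 646 and 630, and 1 member, Cd24a, was called. Scaling by total UMIs in place of TMM gave 1042 higher and 479 lower.

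Markers of neurons and glia separated the spots with Dcx from the rest. Of 8 cortical and hippocampal excitatory neuron markers, 6 were called higher, led by Slc17a7 (0.53) and Rorb (0.52), and their summed level was 729 to 983 CPM with Dcx and 451 to 715 CPM without. All 9 striatal projection neuron markers were called lower, among them Penk (−0.81), Pde10a (−0.80) and Drd2 (−0.79), as were all 8 mature oligodendrocyte markers. The summed striatal level was 938 to 2519 CPM with Dcx and 2737 to 3573 CPM without. The 10 ependymal markers had a median log2 fold change of 0.04. Among other neurogenesis genes, Neurod1 (0.80), a neuronal differentiation factor, and Stmn1 (0.34) rose, and Pbx3 (−0.42) and Meis2 (−0.35) fell. In these lists, the part of spot depth was not tested.

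Spots with a UMI of Mki67 or Top2a were few, at 22, 60, 20 and 10 in sections 1 to 4. Of 8 members tested, 4 were called higher and 0 lower by edgeR (0 lower at an unadjusted p under 0.05 and by DESeq2), where 1.76% of 14022 genes were called higher and 0.963% lower. Cd24a stood at 64.6, 52.8, 128 and 7.70 CPM in these spots and at 13.4, 7.23, 10.4 and 9.20 CPM elsewhere (log2 fold change 2.63, standard error 0.24, adjusted p = 2.27e-24 from edgeR). Sections 1 to 3 were higher, and section 4, with 10 such spots, was not. The edgeR fit shares its estimate of spread over genes, so adjusted p-values here do not measure the spread of any gene alone between sections. Sox11 stood at 35.2, 46.9, 54.0 and 15.4 against 16.6, 15.3, 13.6 and 9.93 CPM (1.42, standard error 0.25), higher in 4 of 4 sections. Dlx2 (1.52, 3 of 4 sections) and Sox4 (1.35, 3 of 4 sections) were called higher too. Dlx1 (0.92, adjusted p = 0.0869), Igfbpl1 (1.08, adjusted p = 0.312), Dcx (0.60, adjusted p = 0.609) and Sp9 (0.43, adjusted p = 0.559) were not called by edgeR.

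Of the 112 spots with Mki67 or Top2a, 33 (29.5%) were also ependymal-marker spots, against 9.40% of all spots, and the number was 7 of 22, 19 of 60, 6 of 20 and 1 of 10 in sections 1 to 4. All 10 ependymal markers were called higher in them (median 2.62), with Hdc (3.16) and Tmem212 (3.11) in the lead. Their summed level ran from 216 to 1177 CPM for ependyma, against 111 to 202 CPM elsewhere, and from 17.6 to 670 CPM for choroid plexus, against 15.8 to 153 CPM. With ependymal-marker spots left out, a setting chosen after seeing the data, 1 member was called, Cd24a (1.64, adjusted p = 0.0148 from edgeR), and 20 genes were higher and 24 lower in place of 247 and 135. Without section 2, which held 60 of the 112 spots, 1 member was called as well, again Cd24a. Scaling by total UMIs gave 321 higher and 68 lower genes. Of 19 other cell cycle genes tested, 11 entered the test only with the help of the spots with Mki67 or Top2a and are not counted here. Of the remaining 8 genes, 3 were called higher, Birc5 (3.21), Mcm3 (2.77) and Hmgb2 (2.56), and the summed level of all 20 genes of the list was 272 to 486 CPM against 104 to 110 CPM elsewhere. The stem cell factor Sox2 (0.81) rose, and the 8 OPC markers had a median of 0.07.

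**Figure D5:**
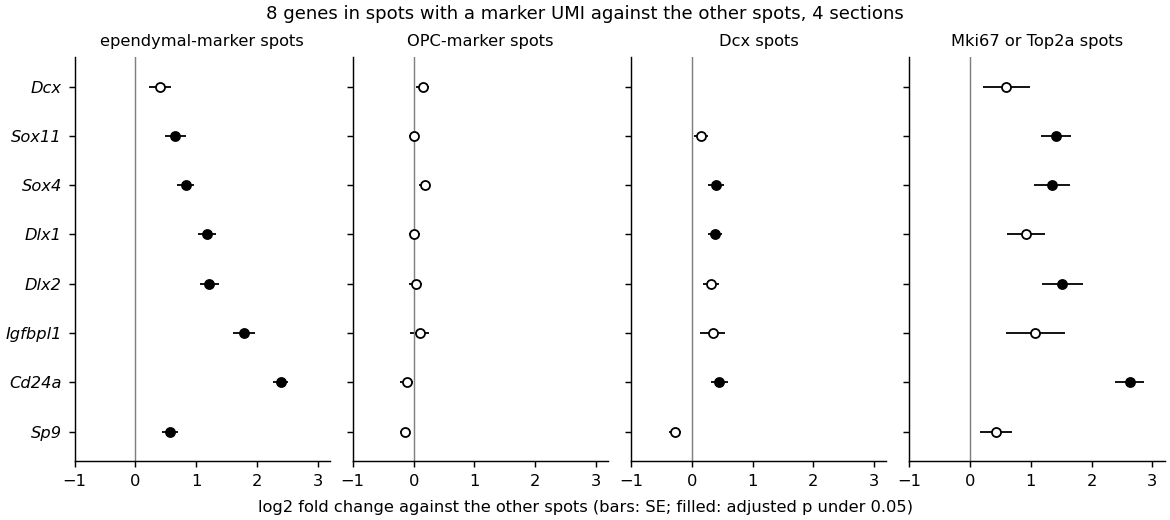
Log2 fold change (dots) with standard error (bars) of 8 genes in spots with a marker UMI against the other spots of the same 4 sections. Filled dots had an adjusted p under 0.05 by edgeR's quasi-likelihood test. The genes lie right of 0 in ependymal-marker spots (Cd24a 2.39, Dcx 0.40), near 0 in OPC-marker spots, and Dcx is not plotted where it defines the spots.

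The 4 comparisons draw on the same sections, and most of their other spots are shared, so they are not independent of each other. The genes whose spots were most like those of each member were named by the correlation, over the spots of a section, of the excess over the depth expectation, averaged over 4 sections. Cd24a was most like Rarres2 (r = 0.53) and the cilia genes Ccdc153 (0.52) and Tmem212 (0.51). Igfbpl1 was most like Zic1 (0.44, from 0.42 to 0.48 by section), Rasd1 (0.41), Prkcd (0.40) and Lbhd2 (0.39). Zic1, Lbhd2, Prkcd and Rasd1 were also the leading 4 of Dlx1 (0.36 for Lbhd2) and of Dlx2 (0.26 for Zic1). Top2a and Mki67 were both most like the chromatin gene Hmgb2 (0.22 and 0.26). No gene was like Dcx, whose highest mean correlation was 0.086, with the synaptic vesicle gene Syp. The points of these correlations share the library and the depth of their section, and the values are descriptions.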

How the data were processed

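Gene expression was measured by Visium spatial transcriptomics in 4 sections of Nf1+/- mouse brain. The values deposited by the authors are raw UMI counts for each gene in each spot, made with Space Ranger 1.3.1 (per the file headers) on the mouse build mm10 (per the labels), and the counts were used as deposited. Spots with at least 500 UMIs were kept (7620 of 7668), with 19261103 to 37001945 UMIs per section. A spot can hold several cells, no doublet caller was run and spot positions were not used.

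Levels are CPM with exact Poisson 95% intervals, which cover counting error only. Expected spots of a single gene were computed from its UMI total and each spot's depth, as if UMIs fell independently. For spots shared by genes or rich in them, these chances were scaled to the number of spots in which each gene was found. For each comparison, UMIs were summed per section and spot group (8 sums) and tested with edgeR 4.0.16 (quasi-likelihood, TMM, filterByExpr, section as block, R 4.3.3) with Benjamini-Hochberg adjustment over all genes tested, at 0.05. DESeq2 1.42.0 was an alternative. Both groups of a number came from the same section, which is where the pairing comes from, and their deviations correlated at 0.33 to 0.74, except 0.0997 to 0.203 for spots with Mki67 or Top2a. Other tools were python 3.11.15, numpy 2.4.6, scipy 1.17.1 and pandas 2.3.3.

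The 10 genes and the marker lists were chosen with earlier results of these data known. Besides the 10 genes and the 4 defining markers, the text names up to 4 genes of each list with the largest change among those with an adjusted p under 0.05 and the same direction in 4 sections, and for likeness up to 5 genes with at least 200 UMIs. In spots with ependymal markers and with Mki67 or Top2a, list genes that passed the filter only with the help of those spots were left out of the counts of other lists, a choice made after seeing the data. Alternatives were total-UMI scaling, no filter, no block, each section left out, other spot minimums, at least 2 marker UMIs, matched depth, single markers and choroid plexus-marker spots left out. Leaving out ependymal-marker spots was added after seeing the data. Some genes of these lists are counted but not reported here by name.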

Additional observations from a re-analysis of the deposited data

Results flagged for a closer look

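Of 68 sets of 4 section values tested, 2 held a section far from the other 3, and chance flags about 1 in 20 such sets, or 3.4 of 68. Dcx was found in 0.940 of the number of spots that depth predicts in section 3, against 0.987 to 0.991 in the other sections. Sox4 had a log2 ratio of −0.21 between spots with a Dcx UMI and other spots in section 4, against 0.54 to 0.67 in the other sections.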

How the results depend on the processing

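The number of sections, 4, and the few UMIs of Top2a and Mki67 limit the precision. The members Cd24a, Igfbpl1, Dlx1, Dlx2 and Sox4 were called higher in ependymal-marker spots under all 15 alternatives. In OPC-marker spots 0 members were called under the 15 alternatives that gave them an adjusted p. DESeq2 gave them none there and is not among these 15. For the other results the cause of a change was not tested, beyond the fewer spots or sections that an alternative leaves.

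In ependymal-marker spots, the 935 higher and 645 lower genes became 392 and 19 with no replicate block, 1582 and 1428 with at least 2 marker UMIs, 519 and 395 matched on total UMIs, and 415 and 216 without choroid plexus-marker spots. The lower count was 372 with DESeq2 and 1069 with no filter. With 1 section left out the counts ran from 440 to 1080 and from 146 to 747, lowest without section 1 (without section 3 they were 597 and 271), and 5 to 8 members were higher. The eighth, without section 4, was Mki67, which passed the filter there. Outside ependymal-marker spots Mki67 stood at 0.508 ± 0.170 CPM, below the limit of the filter with all 4 sections (0.918 CPM). That call is therefore not counted as support.

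In OPC-marker spots, the 75 higher and 110 lower genes became 5 and 19 with DESeq2, 0 and 0 with no replicate block, and 13 and 8 with Cspg4 alone. They were 126 higher when matched on total UMIs and 52 lower with at least 2 marker UMIs. With 1 section left out they ran from 29 to 88 and from 34 to 113, lowest without section 2 (43 higher without section 3). The small uncalled log2 fold changes turned sign there. Sox11 was at −0.00656 with DESeq2, −0.00324 with Pdgfra alone and between −0.0622 (without section 1) and 0.0800 with 1 section left out, below 0 without section 3 too. Dlx1 was at −0.00912 with DESeq2, −0.0238 with no block, −0.105 with at least 2 marker UMIs, −0.0143 without choroid plexus-marker spots, −0.00516 with Pdgfra alone, −0.0656 with Cspg4 alone, −0.0425 without ependymal-marker spots and −0.102 (without section 2) to 0.0730 with 1 section left out. Dlx2 was at −0.00344 with no block, −0.0309 with Pdgfra alone, −0.0775 without ependymal-marker spots and −0.0432 (without section 2) to 0.0715 with 1 section left out. Igfbpl1 was at −0.0215 with DESeq2, −0.267 with at least 2 marker UMIs, −0.0603 with Pdgfra alone, −0.169 without ependymal-marker spots and −0.0748 (without section 2) to 0.240 with 1 section left out, and Cd24a was at 0.0152 with Pdgfra alone.

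In spots with Dcx, the 646 higher and 630 lower genes became 297 and 286 with DESeq2, 0 and 0 with no replicate block, 105 and 166 with at least 2 Dcx UMIs and 62 and 126 matched on total UMIs, and 1042 were higher with total-UMI scaling. With 1 section left out they ran from 410 to 536 and from 417 to 524, lowest without section 4. The 3 members became 0 with DESeq2, no block, at least 2 Dcx UMIs, without choroid plexus-marker spots or without ependymal-marker spots, 1 matched on total UMIs, and 0 to 3 with 1 section left out (0 without section 2, 1 without section 1 or 3). Igfbpl1 was at −0.110 with at least 2 Dcx UMIs and −0.0636 (without section 2) to 0.488 with 1 section left out.

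In spots with Mki67 or Top2a, the 247 higher and 135 lower genes became 161 and 35 with DESeq2, 85 and 6 with no replicate block, 44 and 9 matched on total UMIs, 145 and 75 without choroid plexus-marker spots, 163 and 54 with Top2a alone, and 20 and 24 without ependymal-marker spots. The lower count was 68 with total-UMI scaling, 43 with at least 2 marker UMIs and 64 with Mki67 alone. With 1 section left out they ran from 105 to 231 and from 49 to 147 (105 higher without section 2, 142 and 57 without section 3, 49 lower without section 1). The 4 members became 2 with DESeq2, 0 matched on total UMIs, where no member passed the filter on low counts, 1 without ependymal-marker spots, and 1 to 4 with 1 section left out. Dcx was at −0.0493 (without section 2) to 0.813 with 1 section left out, and Sp9 at −8.75e-05 without ependymal-marker spots.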
